A study of Homo sapiens with 8 samples.

Results

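The comparison described here set TMD8 cells carrying a guide RNA against KLHL14 beside TMD8 cells carrying a control guide, both kept in DMSO, the solvent of the drug arm, for 24 h. TMD8 is an established human line from a diffuse large B cell lymphoma of the activated B cell-like type. The cells of all groups had been transduced with a lentivirus to express Cas9 and then stably expressed their guide. The labels give the genotype of the sgCTRL cells as KLHL14(+/+) and that of the sgKLHL14 cells as KLHL14(-/-), each with 2 libraries in DMSO and 2 more after 24 h in 2 nM ibrutinib, an inhibitor of the kinase BTK. Whether the sgKLHL14 cells were a clone or a pool, and whether replicate libraries stem from different cultures, is not given in the sources used here, so the p-values measure the spread between libraries, which may be technical. The table column names show 1 guide against KLHL14, so differences between guides were not measured. Genes were included when the mean of the deposited log2 level over the 8 libraries was at least 6, which kept 10921 of 25066 genes, 43.6% of the table, and these took 99.7% or more of every library's reads. TMEM22, with a mean of 6.003, lay just inside that threshold and HOXB3, with 5.9996, just outside it. The guide difference in DMSO itself rests on 4 of the 8 libraries of the series. The inclusion mean and the estimate of spread behind the p-values used all 8, so the calls in DMSO also draw on the ibrutinib libraries.

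KLHL14 encodes a protein of the BTB and kelch repeat family, whose members act as substrate adaptors of cullin-3 ubiquitin ligases. In B cells KLHL14 is found at the endoplasmic reticulum and is known as a gene that limits the maturation of B cell receptor subunits, and it is recurrently mutated in this lymphoma type. The B cell receptor consists of a membrane immunoglobulin with CD79A and CD79B, and it signals through SYK and BTK to NF-kB, a pathway that activated B cell-like lymphomas depend on.

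The 4 DMSO libraries held between 13497206 and 23467110 reads, with the lowest total in sgCTRL replicate 1. Levels are log2 values of read counts that the submitters had scaled between libraries, on which 1 read was worth 1.16 to 2.00 units in the DMSO libraries. They are not corrected for gene length, so they are compared between libraries and not between genes. Replicates correlated at 0.996 over the included genes in both DMSO groups, with a root mean square SD of 0.12 log2 in each. On the first principal component of the 4 DMSO libraries, which held 53.9% of their variance, the sgCTRL libraries lay at -10.8 and -5.86 and the sgKLHL14 libraries at 12.8 and 3.89. All 10 B cell markers and all 14 markers of activated B cell-like lymphoma were among the included genes, whereas 0 of 15 markers of T and NK cells were. The defining T cell genes CD3D, CD3E, CD28 and IL7R were among the 6 of these 15 listed at 0 in every DMSO library. Of the others, CD8A stood at 5.24 to 5.27, NKG7 at 3.2 to 4.0 and CD4 at 2.8 to 4.0 in the DMSO libraries. One of 15 myeloid markers was included (CD68), and 8 of the 15, S100A8, S100A9 and MPO among them, were listed at 0. Of 15 epithelial and fibroblast markers 5 were included. Their summed level was 13.4 in both sgCTRL libraries and 13.3 and 13.2 in the sgKLHL14 libraries. VIM alone stood at 12.94 to 13.19 in the DMSO libraries, CDH1 at 9.99 to 10.44 and KRT8 at 7.9 to 8.3. COL1A1 stood at 6.22 to 6.54 and COL1A2 at 5.32 to 6.28, and PDGFRB and DCN also had reads in each DMSO library. EPCAM, KRT19 and LUM were among the 5 of these 15 listed at 0 in every DMSO library.

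KLHL14 mRNA was not lower in the cells with the KLHL14 guide. Its level was 12.07 and 12.05 in sgCTRL and 12.19 and 12.33 in sgKLHL14 cells, from 2147, 3660, 4001 and 4225 reads. The groups did not overlap, and the difference of 0.20 ± 0.060 log2 (SE, n = 2 libraries a group) did not pass the test (adjusted p = 0.107). A guide changes the DNA of its target and need not change the amount of its mRNA, so this count does not check the genotype. BTK, the target of ibrutinib, stood at 13.80 and 13.74 in sgCTRL and 13.72 and 13.78 in sgKLHL14 cells, a difference of -0.02 with a 95% interval of -0.14 to 0.10 and an adjusted p of 0.894.

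**Figure D1:**
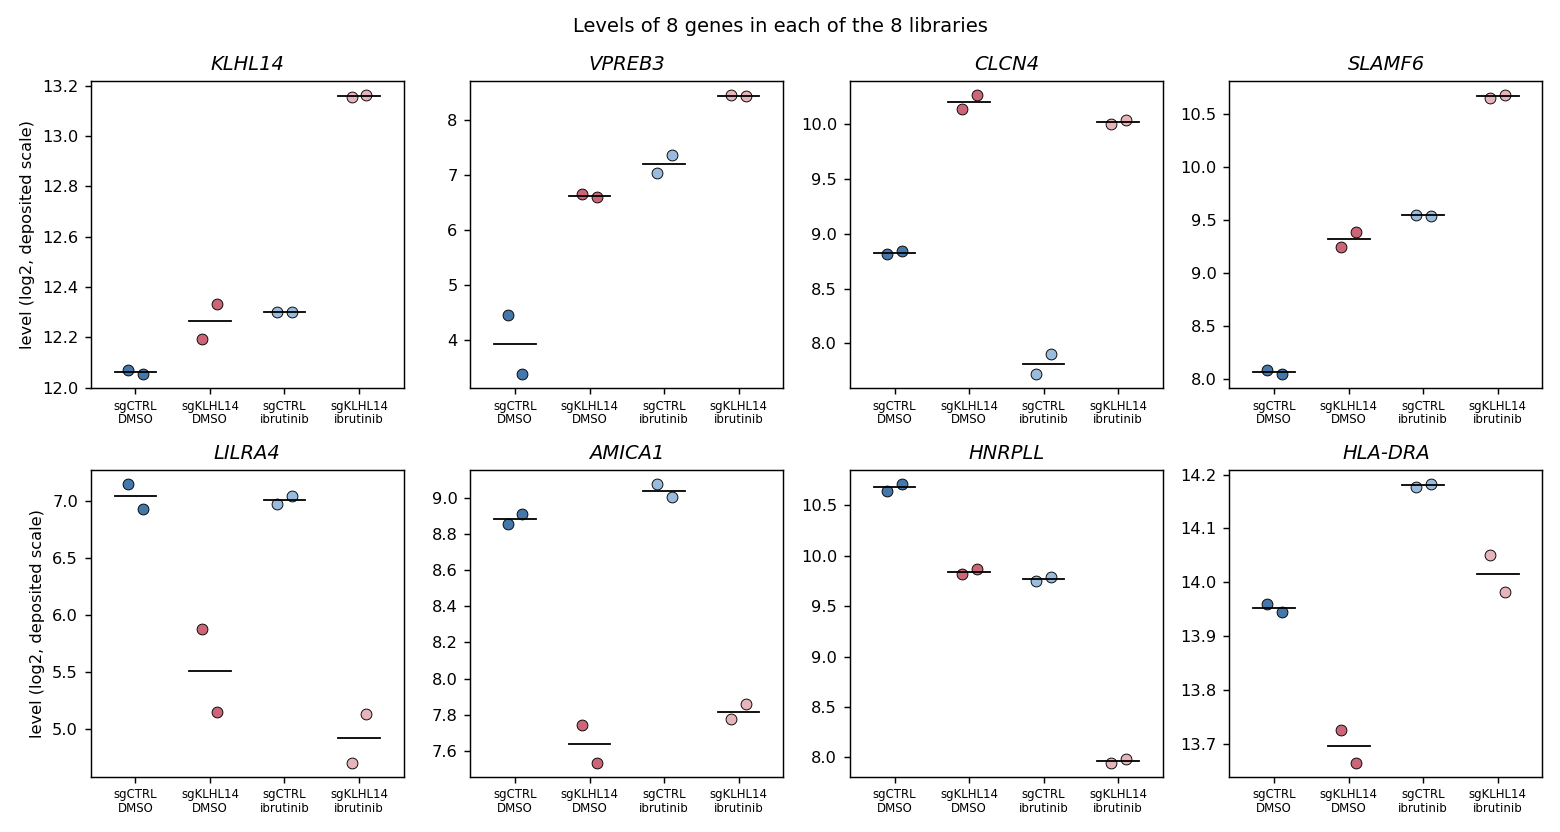
Level of 8 genes (log2, deposited scale, y axis) in each of the 8 libraries, grouped by guide and treatment on the x axis. Each point is 1 library and each bar the mean of 2. KLHL14 stood between 12.05 and 12.33 in the 4 DMSO libraries, and the VPREB3, CLCN4 and SLAMF6 points of sgKLHL14 lie above those of sgCTRL in DMSO, while those of LILRA4, AMICA1, HNRPLL and HLA-DRA lie below.

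At an adjusted p under 0.05 in limma, 95 genes were higher and 106 were lower in sgKLHL14 than in sgCTRL cells, 0.87% and 0.971% of the included genes and 1.84% together. The changes were small. Among the genes called higher the median difference was 0.44 log2, a fold of 1.35, with 8 at 2-fold or more and 32 at 1.5-fold or more. Among the genes called lower the median was -0.39 log2, with 3 at 2-fold or more and 21 at 1.5-fold or more. In none of the 201 did the libraries of the groups overlap, which a call on the same libraries favours. Of all 10921 included genes, 2390 (21.9%) had both sgKLHL14 libraries above both sgCTRL libraries, and 2220 (20.3%) had them below. The smallest calls were 0.24 and -0.23 log2. The median over all included genes was 0.004, and 1621 genes had an unadjusted p under 0.05. The number of calls depended on single libraries: it was 41 higher and 21 lower without sgCTRL replicate 1, 83 and 62 without sgCTRL replicate 2, 27 and 48 without sgKLHL14 replicate 1, and 244 and 284 without sgKLHL14 replicate 2. In these bulk libraries a change in every cell and a change in the share of cells in a given state cannot be told apart. A fit that gave every gene the same prior variance whatever its level called 11 and 9, and 42 of the 201 genes stayed called in each of the 8 fits that left out 1 library.

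**Figure D2:**
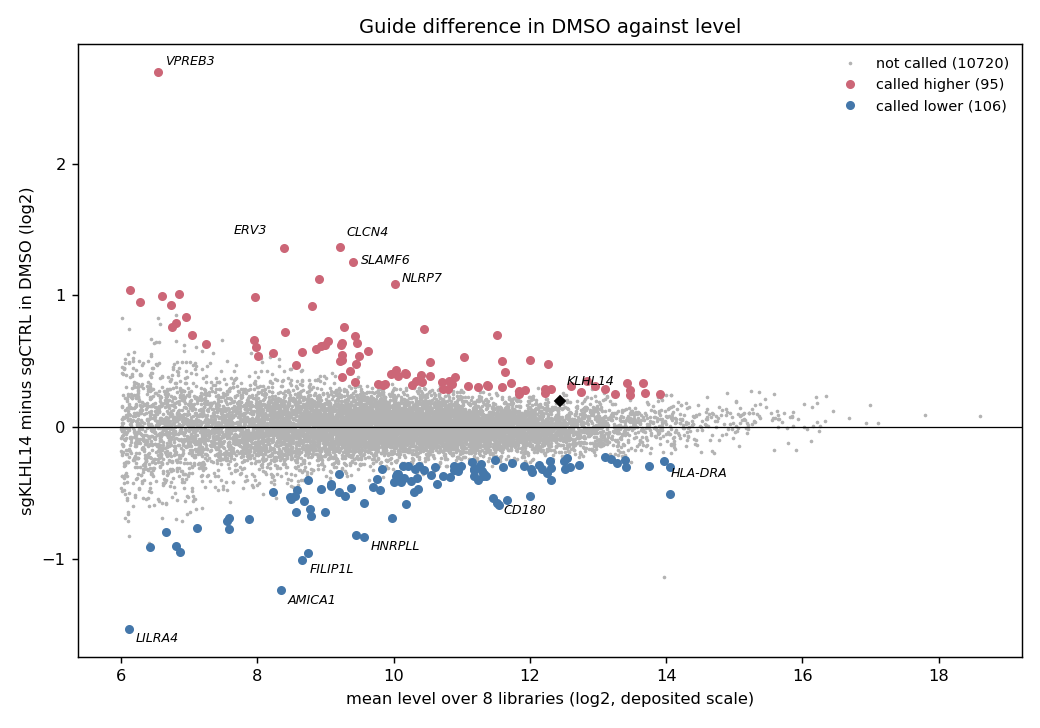
Guide difference in DMSO (sgKLHL14 minus sgCTRL, log2, y axis) against the mean level over 8 libraries (log2, x axis) for 10921 genes, with 95 genes called higher in red, 106 called lower in blue and the others in grey. KLHL14 is the black diamond at 0.20, and VPREB3 at 2.70 and LILRA4 at -1.53 are the ends of the called range.

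The genes that rose most in sgKLHL14 cells were VPREB3, CLCN4, ERV3 and SLAMF6. VPREB3, which encodes a partner of the immunoglobulin heavy chain in precursor B cells, stood at 4.46 and 3.39 in sgCTRL and 6.65 and 6.59 in sgKLHL14 cells. These levels came from 11 and 9 reads against 86 and 79, and the difference was 2.70 ± 0.26 log2 (6.49-fold, adjusted p = 4.59e-06). VPREB3 was thus near the lower end of detection in sgCTRL cells in DMSO, and with 64 added to each value its difference was 1.02. In the limma fit that gave every gene the same prior variance it was not called (adjusted p = 0.0624). Its mean over the 8 libraries was 6.54, with 3.92 in sgCTRL cells in DMSO and 7.20 and 8.44 in sgCTRL and sgKLHL14 cells in ibrutinib. It was thus included through the groups where it was higher. CLCN4, an endosomal exchanger of chloride and protons, was at 8.82 and 8.84 against 10.13 and 10.26, higher by 1.37 ± 0.095 log2 (adjusted p = 6.96e-08). ERV3, the envelope gene of an endogenous retrovirus whose current symbol is ERV3-1, was at 7.53 and 7.41 against 8.76 and 8.90, higher by 1.36 ± 0.11 (adjusted p = 6.56e-07). SLAMF6, a lymphocyte receptor of the SLAM family, was at 8.08 and 8.04 against 9.25 and 9.39, higher by 1.26 ± 0.087 (adjusted p = 6.96e-08). In each of these genes both sgKLHL14 libraries lay above both sgCTRL libraries, a condition for being named here, by more than the replicates differed. OLFML2A, a secreted protein of the olfactomedin family, and NLRP7, an intracellular protein of the NOD-like receptor family, followed with 1.12 and 1.08. The other 6 of the 12 largest rises were PPAP2B (a lipid phosphatase, now PLPP3), the membrane-bound chemokine CX3CL1, the transcriptional cofactor SSBP2, FADS3 of the fatty acid desaturase family, the adaptor SH2D5 and the membrane protein SUSD3, at 1.04, 1.01, 1.00, 0.99, 0.95 and 0.93. The sgCTRL means in DMSO of PPAP2B (5.16), SUSD3 (5.38), SH2D5 (5.992) and SSBP2 (5.996) lay below the threshold of 6. Their inclusion thus depended on other groups. Leaving out a DMSO library ended the call of PPAP2B in each case and of SH2D5 in each case. It also ended those of SUSD3 (sgCTRL replicate 1 or sgKLHL14 replicate 1), SSBP2 (sgCTRL replicate 2 or sgKLHL14 replicate 1) and CX3CL1 (sgKLHL14 replicate 1), at adjusted p between 0.0533 and 0.362.

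Largest among the falls was that of LILRA4, an immunoglobulin-like receptor best known from plasmacytoid dendritic cells. Its level was 7.15 and 6.93 in sgCTRL and 5.87 and 5.15 in sgKLHL14 cells, from 71, 105, 50 and 29 reads, lower by 1.53 log2 with an SE of 0.26 (adjusted p = 0.00254). LILRA4 had a mean of 6.12 over the 8 libraries and was included through the sgCTRL groups. Its sgKLHL14 means were 5.51 in DMSO and 4.92 in ibrutinib. LILRA4 was not called in the limma fits without a filter on level (adjusted p = 0.133) or with the same prior variance for every gene (0.138). AMICA1, the junctional adhesion molecule now named JAML, was at 8.85 and 8.91 against 7.74 and 7.54, a difference of -1.24 ± 0.12 (adjusted p = 3.14e-06). FILIP1L, a filamin-interacting protein, was at 9.46 and 9.43 against 8.50 and 8.38 (-1.01 ± 0.11, adjusted p = 1.38e-05). ITGAX, the integrin chain CD11c, was at 9.82 and 9.80 against 8.91 and 8.79 (-0.96 ± 0.10, adjusted p = 1.6e-05). HNRPLL, an RNA-binding regulator of splicing in activated lymphocytes whose current symbol is HNRNPLL, was at 10.64 and 10.71 against 9.81 and 9.86 (-0.84 ± 0.083, adjusted p = 5.32e-06). TMEM119, a membrane protein known as a marker of microglia, was at 9.46 and 9.45 against 8.72 and 8.54 (-0.82 ± 0.092). In all of these the sgKLHL14 libraries were the lower ones, and a lack of overlap was a condition for being named here. The other 6 of the 12 largest falls were KLHDC7B of the kelch family (-0.95), the RNA-degrading protein ZC3H12C (-0.91), the costimulatory ligand ICOSLG (-0.91), the secreted guidance protein SEMA3A (-0.80), the sugar mutarotase GALM (-0.78) and CCDC141 (-0.76). All of these 6 and LILRA4 lost the call without sgCTRL replicate 1, at adjusted p between 0.0657 and 0.389. ZC3H12C, SEMA3A, GALM and CCDC141 also lost it without sgCTRL replicate 2 or without sgKLHL14 replicate 1, ICOSLG without sgKLHL14 replicate 1, and SEMA3A without sgKLHL14 replicate 2 or either sgCTRL ibrutinib library (adjusted p between 0.0505 and 0.348).

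Promoters, windows of 300 bases around the start site, are printed for the largest rise and the largest fall that had a promoter entry. LILRA4, the largest fall, had no entry, so AMICA1, the next largest, is printed. The sequences are from RefSeq (GRCh38.p14, a different build from the hg19 of the deposited data, and read by gene rather than by coordinate). They are in lower case and 5′ to 3′ on the gene's strand. In VPREB3 (chr22:23754376-23754675, minus strand) the capitals mark the B cell octamer ATGCAAAT, found here on the other strand, 47 bases before the start site, and the PU.1 core GAGGAAG, also on the other strand, 67 bases before it.
VPREB3: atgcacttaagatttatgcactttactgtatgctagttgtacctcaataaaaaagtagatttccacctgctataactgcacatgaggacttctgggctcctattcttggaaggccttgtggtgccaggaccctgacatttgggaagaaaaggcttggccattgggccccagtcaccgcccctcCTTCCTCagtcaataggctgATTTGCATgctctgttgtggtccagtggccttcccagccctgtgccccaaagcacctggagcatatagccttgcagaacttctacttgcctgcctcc
In AMICA1 (chr11:118212897-118213196, minus strand) the capitals mark an interferon response core GAAANNGAA at -62, the PU.1 core GAGGAAG at -51 and the FOXO core TGTTTAC on the other strand at -45, which overlaps the PU.1 core.
AMICA1: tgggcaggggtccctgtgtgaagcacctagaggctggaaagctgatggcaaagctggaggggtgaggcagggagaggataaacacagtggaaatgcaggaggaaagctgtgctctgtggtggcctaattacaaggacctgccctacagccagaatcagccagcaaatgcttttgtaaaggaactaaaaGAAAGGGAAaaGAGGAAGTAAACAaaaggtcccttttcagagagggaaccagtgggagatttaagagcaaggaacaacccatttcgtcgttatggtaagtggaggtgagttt
Motifs were searched on both strands, and a match is a description of the letters. Of 27305 promoters in the table, 1.8% held the octamer, 13.4% the PU.1 core, 8.29% the interferon response core and 3.41% the FOXO core. Over the 8760 included genes with a promoter entry these shares were 1.28%, 14.2%, 6.74% and 2.19%. Among the genes called higher, 78 of 95 had a promoter entry, and 3 of them (3.85%) held the octamer, 13 (16.7%) the PU.1 core, 4 (5.13%) the interferon response core and 2 (2.56%) the FOXO core. Of the 81 promoters of genes called lower, 1 (1.23%) held the octamer, 13 (16%) the PU.1 core, 8 (9.88%) the interferon response core and 5 (6.17%) the FOXO core. An EBF core and an ETS-IRF composite were also searched. The EBF core was in 29.5% of those called higher, 21% of those called lower and 23% of the included genes with an entry. For the composite these shares were 10.3%, 9.88% and 7.88%. All of these are small counts of called genes, and nothing is read from them.

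The MHC class II genes had the lowest median of the 30 pathway and process lists. These genes encode the molecules that present peptides to CD4+ T cells, their loading factors and their transcriptional regulators. Of 18 included genes 7 were called lower and 0 higher, with a median of -0.26 against 0.004 over all included genes. For this and the later lists, the shares over all included genes were 0.87% called higher and 0.971% called lower. Without a filter on level 1 class II gene was called lower, and without the variance trend 0 were. In 14 of the 18 both sgKLHL14 libraries lay below both sgCTRL libraries, as did 2220 of all 10921 included genes (20.3%). The HLA-DR alpha chain HLA-DRA was at 13.96 and 13.95 in sgCTRL and 13.73 and 13.66 in sgKLHL14 cells, from between 7958 and 13565 reads, and fell by 0.26 ± 0.057 log2 (adjusted p = 0.0225). The DP alpha chain HLA-DPA1 was at 12.36 and 12.40 against 12.17 and 12.08 (-0.26, adjusted p = 0.0307). The DQ alpha chain HLA-DQA1 was at 9.14 and 9.11 against 8.63 and 8.38 (-0.62, adjusted p = 0.00381), and its paralogue HLA-DQA2 at 9.18 and 9.30 against 8.62 and 8.57 (-0.65, adjusted p = 0.00287). The DR beta chain HLA-DRB5 was at 10.77 and 10.68 against 10.32 and 10.19 (-0.47, adjusted p = 0.00173). HLA-DQA1 and HLA-DQA2, and HLA-DRB5 and HLA-DRB1, share much sequence and vary between people, so the split of reads within each pair is uncertain. Of the chaperones that load or edit peptides, HLA-DMA was at 10.51 and 10.34 against 10.04 and 10.08 (-0.36, adjusted p = 0.0116) and HLA-DOA at 9.95 and 9.97 against 9.63 and 9.64 (-0.32, adjusted p = 0.0458).

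Other class II molecules did not pass: HLA-DRB1 differed by -0.34 (adjusted p = 0.0661), HLA-DPB1 by -0.25 (0.069), HLA-DMB by -0.26 (0.126) and HLA-DOB by 0.00. CIITA, the coactivator that controls the family, was at 11.23 in both sgCTRL and 10.96 in both sgKLHL14 libraries, a difference of -0.27 ± 0.068 with an adjusted p of 0.0517, just above the threshold. CD74, the invariant chain, was at 15.89 and 15.75 against 15.74 and 15.54 (-0.17, adjusted p = 0.306), with 0.003 log2 between the nearest libraries of the groups. The ligase that turns over class II molecules at the surface, MARCHF1, was picked out after its value was seen. It is entered as 1-Mar, a spreadsheet date in place of its old symbol, and was at 11.32 and 11.25 against 10.86 and 10.97 (-0.37, adjusted p = 0.00483). The number of class II genes called lower was 7 with all libraries, 1 without sgCTRL replicate 1, and 4 without sgCTRL replicate 2, without sgKLHL14 replicate 2 or without either sgCTRL ibrutinib library. Without sgKLHL14 replicate 2 the list also had 1 gene called higher, the lysosomal reductase IFI30 (0.25, adjusted p = 0.0349), which differed by 0.15 with all libraries and was not called. In these fits HLA-DRA, HLA-DPA1 and HLA-DOA lost their calls each time (adjusted p 0.0504 to 0.227). HLA-DQA2 was the one called gene kept without sgCTRL replicate 1. HLA-DOA was lost without either sgKLHL14 ibrutinib library too (0.0516 and 0.0526), and HLA-DMA, HLA-DOA and MARCHF1 lost theirs without sgKLHL14 replicate 1 (0.0663 to 0.229), MARCHF1 also without sgCTRL replicate 1 (0.0955). The median stayed between -0.28 and -0.19 in all of these fits.

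**Figure D3:**
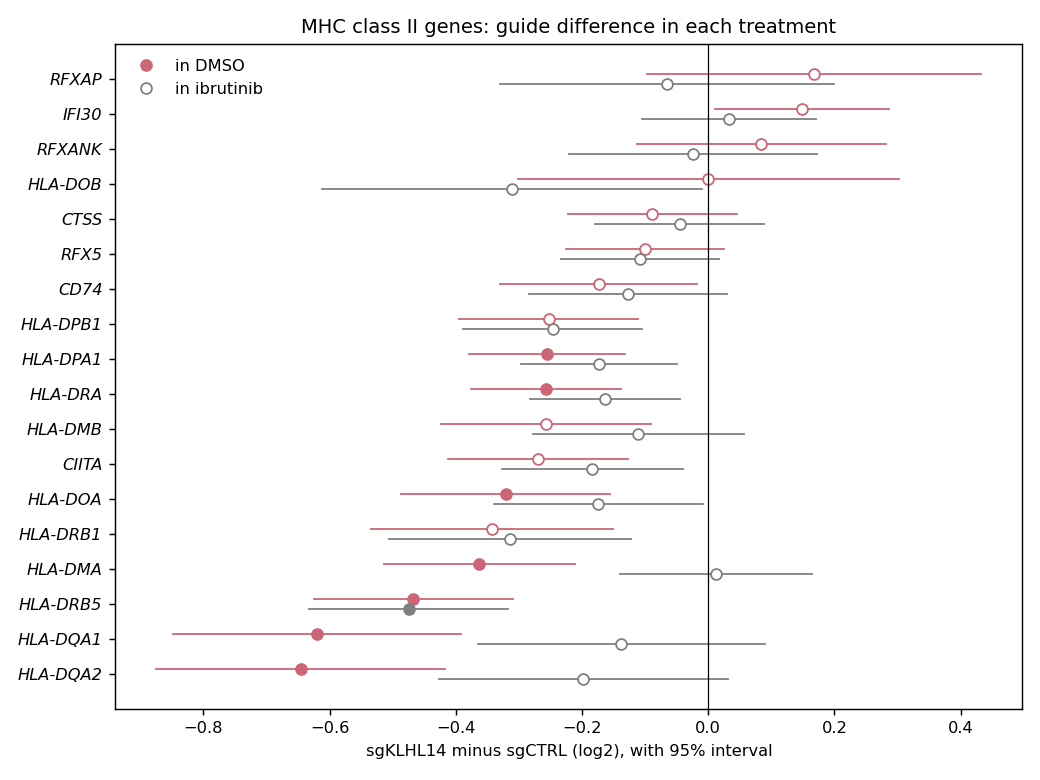
Guide difference (sgKLHL14 minus sgCTRL, log2, x axis) of 18 MHC class II genes in DMSO (red) and in ibrutinib (grey), with 95% intervals. Filled points passed the test. In DMSO 7 genes passed, from HLA-DPA1 at -0.26 to HLA-DQA2 at -0.65, and in ibrutinib HLA-DRB5 alone at -0.47.

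The Y box CTGATTGG, a reversed CCAAT element of class II promoters, was searched in the same windows. It occurred in 4.16% of all promoters and in 5.51% of those of included genes. Among class II genes it occurred in 5 of 15 with an entry (33.3%) and in 3 of the 6 called lower with an entry. The holders were HLA-DMA, HLA-DQA2 and HLA-DRB5, called lower, and HLA-DRB1 and RFX5, not called. Printed are a DR beta and a loading factor promoter, with the Y box in capitals at -93 in HLA-DRB5 (chr6:32530238-32530537, minus strand), where an interferon response core at -163 on the other strand and PU.1 cores at -57 and, on the other strand, at -39 are capitals too, and at -82 in HLA-DMA (chr6:32953048-32953347, minus strand).
HLA-DRB5: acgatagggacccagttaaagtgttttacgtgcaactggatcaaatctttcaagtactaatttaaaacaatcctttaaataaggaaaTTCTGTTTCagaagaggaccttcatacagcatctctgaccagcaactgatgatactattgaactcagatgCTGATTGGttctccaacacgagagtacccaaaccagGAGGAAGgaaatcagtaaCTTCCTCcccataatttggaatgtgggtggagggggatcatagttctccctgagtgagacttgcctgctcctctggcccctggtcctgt
HLA-DMA: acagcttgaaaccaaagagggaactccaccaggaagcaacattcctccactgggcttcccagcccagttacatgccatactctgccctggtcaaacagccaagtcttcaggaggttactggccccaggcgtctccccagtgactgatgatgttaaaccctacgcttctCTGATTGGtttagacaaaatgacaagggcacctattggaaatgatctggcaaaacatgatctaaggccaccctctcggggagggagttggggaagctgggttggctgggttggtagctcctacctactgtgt

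Among B cell receptor chains and proximal signalling genes 3 of 33 were called higher and 2 lower, and the median was -0.05. The signalling chains of the receptor were not called: CD79A differed by 0.10 (95% interval -0.04 to 0.24) and CD79B by 0.13 (-0.01 to 0.27). Those called higher included 2 surface receptors that tune the B cell response. CR2, the complement receptor CD21, was at 6.43 and 6.35 against 7.18 and 7.11, higher by 0.76 ± 0.18 (adjusted p = 0.0399), from 43 to 124 reads. CD22, an inhibitory lectin, was at 13.19 in both sgCTRL and 13.46 and 13.40 in sgKLHL14 libraries, higher by 0.24 ± 0.059 (adjusted p = 0.0423). CBLB, a ubiquitin ligase that restrains receptor signalling, was at 9.80 and 9.69 against 9.26 and 9.51 (-0.36 ± 0.088, adjusted p = 0.0436), and PIK3AP1, the adaptor BCAP of PI3 kinase, at 13.09 and 13.07 against 12.81 and 12.90 (-0.23 ± 0.057, adjusted p = 0.0497). The kinase SYK differed by -0.13 (adjusted p = 0.334). The calls of CR2, CD22, CBLB and PIK3AP1 were lost without sgCTRL replicate 1, without sgCTRL replicate 2 and without sgKLHL14 replicate 1 (adjusted p 0.0715 to 0.525), CR2 also without sgKLHL14 replicate 2, and CD22, CBLB and PIK3AP1 also without either sgCTRL ibrutinib library, with CBLB and PIK3AP1 also lost without either sgKLHL14 ibrutinib library (0.0544 to 0.115). Without sgKLHL14 replicate 1 CBLB differed by -0.24.

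In the Toll-like receptor 9 and MYD88 pathway, which joins the B cell receptor in this lymphoma type, 1 of 22 genes was called lower and 0 higher, with a median of 0.00. It was PLD4, an endolysosomal nuclease that degrades Toll-like receptor 9 ligands, at 11.36 and 11.15 against 10.98 and 10.81 (-0.36 ± 0.076, adjusted p = 0.0165). This call was lost without sgCTRL replicate 1 (adjusted p = 0.339) or sgKLHL14 replicate 2 (0.0678). MYD88 differed by -0.08 (adjusted p = 0.627). CD180, a Toll-like receptor homologue of the B cell surface that was named after its value was seen, was at 11.46 and 11.47 against 10.86 and 10.91 (-0.58 ± 0.061, adjusted p = 1.38e-05), and it stayed called under each of the 19 other settings.

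Genes that mark stages of B cell differentiation moved in both directions. Of 29 germinal centre genes 5 were called higher and 1 lower, with a median of 0.00. ELL3, an elongation factor of germinal centre B cells, was at 10.66 and 10.76 against 11.45 and 11.36 (0.70 ± 0.063, adjusted p = 2.22e-06). CXCR4, the chemokine receptor of the dark zone, was at 11.32 and 11.46 against 11.90 and 11.90 (0.51 ± 0.067, adjusted p = 0.000189). S1PR2, the receptor that holds B cells in the follicle, was at 8.46 and 8.31 against 9.11 and 8.91 (0.63 ± 0.097, adjusted p = 0.00125). ID3, an inhibitor of the E protein TCF3, and TCF3 itself were higher by 0.60 and 0.28, whereas MEF2C, a transcription factor activated by B cell receptor signals, was lower by 0.30 (log2 difference -0.30). BCL6, the master regulator of the germinal centre, differed by -0.18 (adjusted p = 0.305).

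Plasma cell genes had the highest median of the 30 pathway and process lists, 0.12 (that of the 10 B cell markers was 0.13), with 4 of 23 called higher and 1 lower. XBP1, the transcription factor of the secretory programme, was at 10.44 and 10.58 against 10.94 and 10.84 (0.38 ± 0.070, adjusted p = 0.00659). SLAMF7, a surface receptor of plasma cells, was at 10.74 and 10.88 against 11.18 and 11.15 (0.35 ± 0.074, adjusted p = 0.016). MGC29506, the endoplasmic reticulum protein MZB1 of B and plasma cells, was higher by 0.33 and SDC1, the plasma cell marker CD138, by 0.54. The gene called lower was HNRPLL, described above. PRDM1, which drives plasma cell differentiation, and IRF4, required both there and for the survival of this lymphoma type, differed by -0.08 (adjusted p = 0.649) and 0.12 (adjusted p = 0.398). Of the differentiation genes ELL3 and HNRPLL kept their calls under every setting, and CXCR4 and S1PR2 in each fit without 1 library. Those of ID3, TCF3, MEF2C, MGC29506 and SDC1 were lost without sgCTRL replicate 2 (adjusted p 0.0629 to 0.295), those 5 with XBP1 and SLAMF7 without sgKLHL14 replicate 1 (0.0891 to 0.428), and MEF2C, XBP1, SLAMF7, MGC29506 and SDC1 without sgCTRL replicate 1 (0.0904 to 0.268). TCF3, MGC29506 and SDC1 were lost without either sgCTRL ibrutinib library, SDC1 without sgKLHL14 replicate 2 (0.053), and TCF3 without either sgKLHL14 ibrutinib library, and TCF3 differed by 0.17 without sgCTRL replicate 2.

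Surface receptors and ligands held several of the larger changes. Of 28 adhesion genes 4 were called lower and 1 higher: those lower included AMICA1, ITGAX and the lectin SIGLEC6, which was at 12.79 in both sgCTRL libraries against 12.46 and 12.61 (-0.26, adjusted p = 0.0423). ITGAL, the alpha chain of LFA-1, was the one called higher, at 12.24 and 12.12 against 12.50 and 12.49 (0.31, adjusted p = 0.0116). In the chemokine and homing receptors 2 of 14 were called higher, CXCR4 and S1PR2, and 1 lower, the oxysterol receptor GPR183, at 10.95 and 11.01 against 10.68 and 10.62 (-0.33, adjusted p = 0.0225). In the SLAM and Fc receptor-like families 3 of 14 were called higher and 1 lower: SLAMF6 and SLAMF7 rose, as did FCRLA, an intracellular Fc receptor-like protein of B cells, at 12.12 and 12.15 against 12.51 and 12.45 (0.35, adjusted p = 0.00166), and FCRL3 fell (-0.24, adjusted p = 0.0436). Among TNF receptors and costimulatory genes 1 of 21 was called each way. TNFRSF13C, the BAFF receptor, was at 8.86 and 8.71 against 9.42 and 9.53 (0.69 ± 0.093, adjusted p = 0.000227), and ICOSLG, described above, was at 7.23 and 6.83 against 6.01 and 6.24. The medians of these lists lay between -0.11 for the TNF receptors and 0.00 for the SLAM family. AMICA1, ITGAX and SLAMF6 kept their calls under every setting, and FCRLA and TNFRSF13C in each fit without 1 library. SIGLEC6, GPR183 and FCRL3 lost theirs without sgCTRL replicate 1, sgCTRL replicate 2 or sgKLHL14 replicate 1 (0.0807 to 0.431), ITGAL without sgCTRL replicate 2 or sgKLHL14 replicate 1 (0.0654 to 0.112), GPR183 without sgKLHL14 replicate 2 (0.0531), and SIGLEC6 and FCRL3 without either sgCTRL ibrutinib library (0.0855 to 0.101).

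**Figure D4:**
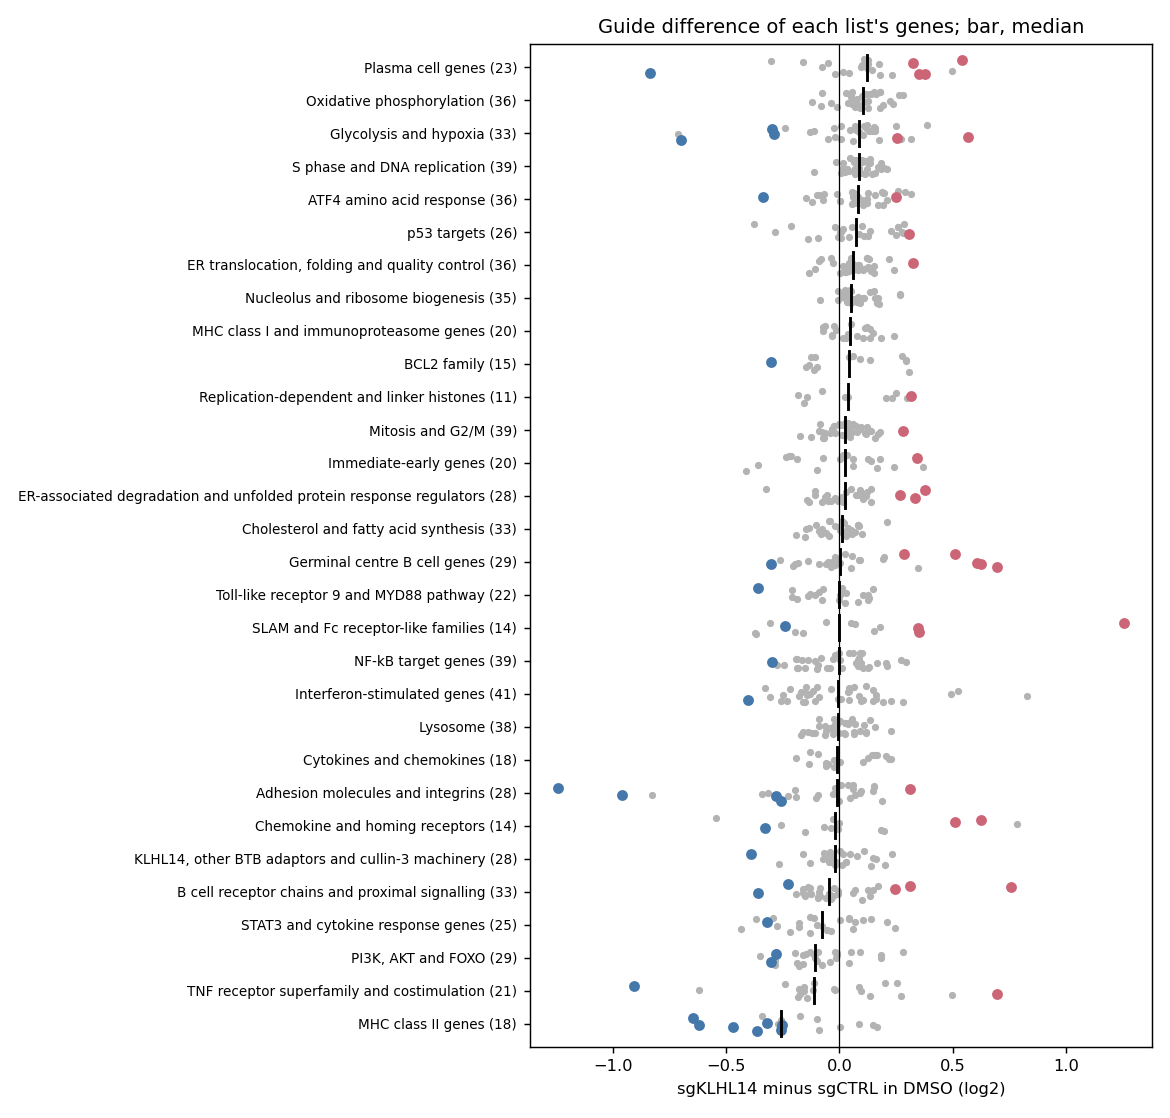
Guide difference in DMSO (sgKLHL14 minus sgCTRL, log2, x axis) of the included genes of 30 lists, ordered by median, with the number of genes in brackets. Red points were called higher, blue points lower, grey points not called, and the bar is the median, from -0.26 for MHC class II to 0.12 for plasma cell genes.

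KLHL14 acts at the endoplasmic reticulum, so genes of that compartment and of its ligase family were counted as lists. Of 36 genes of translocation, folding and quality control 1 was called higher, MGC29506, and 0 lower, with 30 of the 36 above 0 and a median of 0.06. Of all 10921 included genes 5582 lay above 0. Lists of other processes leaned the same way, with 31 of 36 for oxidative phosphorylation, 32 of 35 for ribosome biogenesis and 37 of 39 for S phase. The PI3K, AKT and FOXO list leaned the other way, with 6 of 29. Among 28 regulators of the unfolded protein response and of endoplasmic reticulum-associated degradation 3 were called higher and 0 lower, with a median of 0.02. They were XBP1, PPP1R15A (GADD34, a phosphatase subunit induced by stress) at 12.07 and 11.91 against 12.38 and 12.26 (0.33, adjusted p = 0.0118), and UBE2J1, a ubiquitin-conjugating enzyme of the compartment, at 12.15 and 12.30 against 12.51 and 12.48 (0.27, adjusted p = 0.0286). In the list of KLHL14, other BTB adaptors and cullin-3 machinery 1 of 28 was called, KLHL24, at 9.70 and 9.55 against 9.08 and 9.39 (-0.39 ± 0.095, adjusted p = 0.0435). KLHL6, another B cell member of the family, was at 11.17 and 11.16 against 10.88 and 10.92, a difference of -0.27 with an adjusted p of 0.0545, and CUL3, the cullin itself, differed by -0.03 (adjusted p = 0.849). PPP1R15A lost its call without sgCTRL replicate 2 (0.125) or sgKLHL14 replicate 1 (0.169), UBE2J1 and KLHL24 without sgCTRL replicate 1, without sgKLHL14 replicate 1 or without either sgCTRL ibrutinib library, and KLHL24 also without sgCTRL replicate 2 or either sgKLHL14 ibrutinib library, at adjusted p up to 0.558. Without sgKLHL14 replicate 1 KLHL24 differed by -0.24. MGC29506 was lost without either sgCTRL library, sgKLHL14 replicate 1 or either sgCTRL ibrutinib library, and XBP1 without sgCTRL replicate 1 or sgKLHL14 replicate 1.

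NF-kB target genes, which B cell receptor signalling drives in this lymphoma type, had 1 call in DMSO, where 1.84% of all included genes were called. At an unadjusted p under 0.05 there were 9 of the 39, and 1621 of all 10921 included genes. With the replicate number as a block in the fit 3 of the 39 were called higher and 1 lower. Of 39 NF-kB target genes 0 were called higher and 1 lower, CD83, an activation marker, at 11.31 and 11.24 against 11.05 and 10.91 (-0.30, adjusted p = 0.0351), with a median of 0.00. The survival gene BCL2L1 and the receptor CD40 differed by 0.29 (adjusted p = 0.0609) and 0.27 (adjusted p = 0.0612). In the 20 immediate-early genes PHLDA1, a pleckstrin homology protein, was the one called, at 10.70 and 10.83 against 11.12 and 11.09 (0.34, adjusted p = 0.0119). Of 25 STAT3 and cytokine response genes 1 was called, the kinase JAK2, at 11.29 and 11.26 against 10.91 and 11.00 (-0.32, adjusted p = 0.0144), and the list's median was -0.08. Interferon-stimulated genes gave 1 call in 41, XAF1, a proapoptotic factor, at 8.19 and 8.20 against 7.80 and 7.77 (-0.41, adjusted p = 0.0436), and limma called 0 of 18 cytokines and chemokines and 0 of 20 MHC class I and immunoproteasome genes, with 0 and 2 at an unadjusted p under 0.05 and 0 by voom in both. The medians of these 3 lists were -0.01, -0.01 and 0.05. CD83, JAK2 and XAF1 lost their calls without either sgCTRL library (0.0592 to 0.324), PHLDA1 without sgCTRL replicate 1, JAK2, PHLDA1 and XAF1 without sgKLHL14 replicate 1 (up to 0.178), CD83 and XAF1 without sgKLHL14 replicate 2 or either sgCTRL ibrutinib library, and XAF1 without either sgKLHL14 ibrutinib library.

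Growth and metabolic lists had from 0 to 5 calls each and medians mostly just above 0, while 1.84% of all included genes were called. The 5 calls were in glycolysis and hypoxia, where 14 of 33 genes had an unadjusted p under 0.05. Of 39 genes of S phase and DNA replication 0 were called by limma (8 at an unadjusted p under 0.05, 0 by voom on the recovered reads), and 37 lay above 0, with a median of 0.08, and in 24 both sgKLHL14 libraries were above both sgCTRL libraries, as in 2390 of all 10921 included genes (21.9%). The replication clamp PCNA was at 12.84 and 12.91 against 13.08 and 13.04 (0.18, adjusted p = 0.142), and the helicase subunit MCM2 differed by 0.17 (adjusted p = 0.201). Over all included genes 5582 of 10921 lay above 0. Of 36 oxidative phosphorylation genes 0 were called (9 unadjusted, 0 by voom) and 31 lay above 0, with a median of 0.10, and of 35 genes of ribosome biogenesis 0 were called (7 unadjusted, 0 by voom) and 32 lay above 0, with a median of 0.05. With the libraries scaled to the same median, which moved the median of all included genes by 0.014 log2, the S phase count was 35 and the other counts 31 and 31. In mitosis and G2/M 1 of 39 was called higher, CDC20, the activator of the anaphase-promoting complex, at 11.85 and 11.92 against 12.27 and 12.06 (0.28, adjusted p = 0.0436). Of 33 genes of glycolysis and hypoxia 2 were called higher, the enzymes ENO2 (0.57, adjusted p = 0.00692) and TPI1 (0.25, adjusted p = 0.0472), and 3 lower, the hypoxia factor HIF1A at 13.09 and 13.00 against 12.71 and 12.79 (-0.29, adjusted p = 0.0116), the collagen hydroxylase P4HA2 (-0.70, adjusted p = 0.0123) and PFKFB3, which sets the rate of glycolysis (-0.30, adjusted p = 0.046). The ATF4 list had 1 of 36 called each way, AARS, alanyl-tRNA synthetase (0.25, adjusted p = 0.0286), and SLC7A11, the cystine transporter (-0.34, adjusted p = 0.0469). By limma 0 genes were called among 33 of cholesterol and fatty acid synthesis and 38 of the lysosome, with 4 and 3 at an unadjusted p under 0.05 and 0 by voom in both.

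None of these 8 cell cycle and metabolic calls was kept in every fit without 1 library. CDC20, TPI1, PFKFB3, AARS and SLC7A11 were lost without sgCTRL replicate 1, sgCTRL replicate 2, sgKLHL14 replicate 1 or either sgCTRL ibrutinib library, and all of these but AARS without either sgKLHL14 ibrutinib library. HIF1A was lost without sgCTRL replicate 1 or sgKLHL14 replicate 1, ENO2 without sgCTRL replicate 2 or sgKLHL14 replicate 1, P4HA2 without sgCTRL replicate 1 or sgKLHL14 replicate 2, and PFKFB3 without sgKLHL14 replicate 2 (adjusted p 0.054 to 0.644). Without sgKLHL14 replicate 1 the differences of CDC20, TPI1 and SLC7A11 were 0.18, 0.16 and -0.17, and without sgKLHL14 replicate 2 that of SLC7A11 was -0.51.

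Among regulators of survival, BCL2L11, which encodes the proapoptotic protein BIM, was at 13.88 and 13.93 in sgCTRL and 13.56 and 13.64 in sgKLHL14 cells (-0.30 ± 0.058, adjusted p = 0.00908). It was the sole limma call in 15 genes of the BCL2 family, where BAX, a pore-forming member, differed by 0.28 (adjusted p = 0.0545). Of these 15, 6 had an unadjusted p under 0.05, and voom on the recovered reads called 4. BCL2L11 was 1 of the 2 genes called lower of 29 in the PI3K, AKT and FOXO list, of which 6 lay above 0 and whose median was -0.11. In the 26 p53 targets 1 was called higher, the nuclease AEN, at 11.38 and 11.47 against 11.82 and 11.64 (0.31, adjusted p = 0.0213), and in 11 histone genes HIST1H2BK, now H2BC12, rose (0.31, adjusted p = 0.0116). Of the marker lists, CDH1, the epithelial cadherin, was called lower at 10.44 and 10.39 against 9.99 and 10.02 (-0.41, adjusted p = 0.00352), while EPCAM was at 0. CYB5R2, a reductase among the markers of the activated B cell-like type, was called higher (0.31, adjusted p = 0.0255). BCL2L11 was lost without sgCTRL replicate 2, AEN and CDH1 without sgCTRL replicate 1, HIST1H2BK without either sgCTRL library, CYB5R2 without sgCTRL replicate 2 or sgCTRL ibrutinib replicate 1, and BCL2L11, AEN, HIST1H2BK and CYB5R2 without sgKLHL14 replicate 1, with adjusted p between 0.0505 and 0.315.

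The same guides were also compared after 24 h of 2 nM ibrutinib, in 4 other libraries of the same fit, which share its estimate of spread. There 279 genes were called, 2.55% of the included genes, 189 higher and 90 lower. Of the 95 genes called higher in DMSO 91 had a positive difference in ibrutinib, and of the 106 called lower 99 had a negative one, together 94.5% against 63.3% of all included genes. In both treatments 68 genes were called higher, 71.6% of the DMSO calls and 36.0% of the ibrutinib calls. Called lower in both were 47, 44.3% of the DMSO calls and 52.2% of the ibrutinib calls, and 0 genes were called in opposite directions. The median of the genes called higher in DMSO was 0.44 there and 0.54 in ibrutinib, and that of the genes called lower was -0.39 and -0.25. Of the 12 largest rises in DMSO 10 were also called in ibrutinib, and of the 12 largest falls 8. ICOSLG, at -0.91 in DMSO, was at 0.20 in ibrutinib, where its levels were 7.10 and 6.75 in sgCTRL and 6.93 and 7.32 in sgKLHL14 cells, but the difference of the differences did not pass (adjusted p = 0.481). The 7 class II genes called in DMSO differed by 0.01 (HLA-DMA) to -0.47 (HLA-DRB5) in ibrutinib, and in none of the 7 did the treatments differ by the test (adjusted p 0.486 or more). S phase genes had a median of 0.08 in DMSO and -0.14 in ibrutinib.

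**Figure D5:**
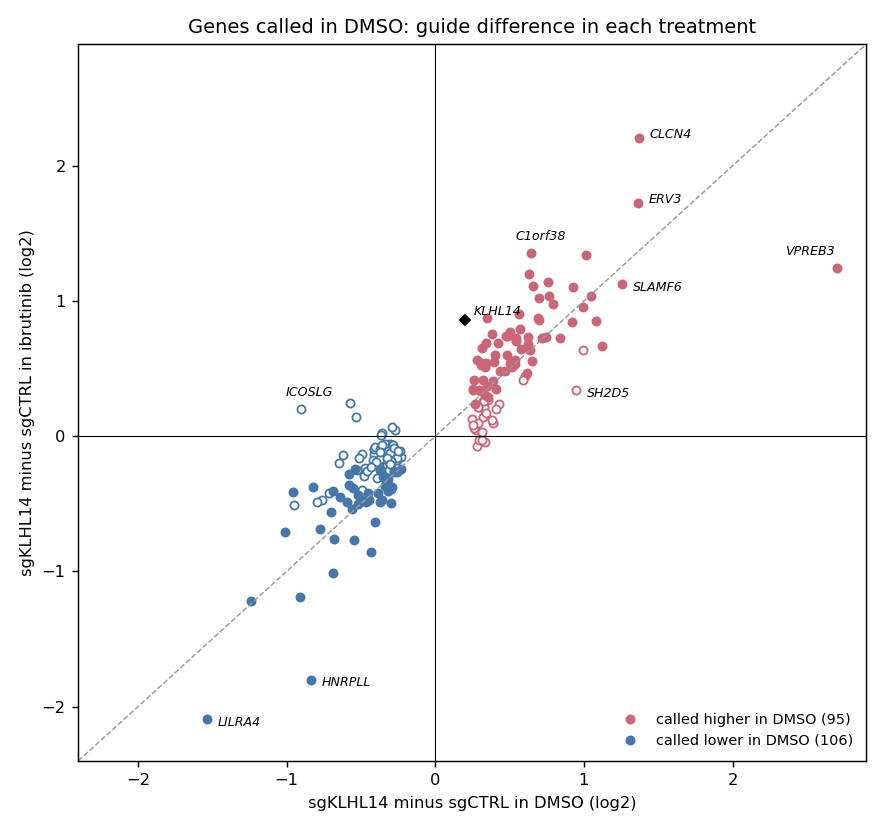
Guide difference (sgKLHL14 minus sgCTRL, log2) in DMSO (x axis) and in ibrutinib (y axis) for the 201 genes called in DMSO and KLHL14 (black diamond). Red genes were called higher and blue genes lower in DMSO, filled points were also called in ibrutinib, and the dashed line marks equal differences. Of the 201 points, 190 lie in the lower left or upper right quadrant.

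The guide difference itself depended on the treatment in 3 genes, 0.0275% of those included. HNRPLL was lower by 0.84 log2 in DMSO and by 1.80 in ibrutinib, where it stood at 9.75 and 9.78 in sgCTRL and 7.95 and 7.99 in sgKLHL14 cells (log2 differences -0.84 and -1.80, DMSO minus ibrutinib 0.96, adjusted p = 0.00132). CLCN4 was higher by 1.37 in DMSO and 2.21 in ibrutinib, where it stood at 7.72 and 7.90 against 9.998 and 10.04 (-0.84, adjusted p = 0.023). KLHL14 differed by 0.20 in DMSO, which did not pass, and was higher by 0.86 in ibrutinib, with levels there of 12.30 in both sgCTRL and 13.16 in both sgKLHL14 libraries (-0.66, adjusted p = 0.00162). So in each of the 3 the smaller guide difference was the one in DMSO. The next smallest p-values belonged to C1orf38, the B cell adaptor THEMIS2 (0.64 in DMSO and 1.35 in ibrutinib, adjusted p = 0.103), and SLAMF7 (0.35 and 0.87, adjusted p = 0.184). VPREB3, with 2.70 in DMSO and 1.24 in ibrutinib, did not pass (adjusted p = 0.481), although it did without sgCTRL replicate 1 (0.0144). At an unadjusted p under 0.05 the treatments differed in 625 genes, 5.72% of those included. HNRPLL and KLHL14 stayed called in each fit without 1 library. CLCN4 lost the call without sgCTRL replicate 1, sgCTRL replicate 2, sgKLHL14 replicate 1, sgCTRL ibrutinib replicate 1 or either sgKLHL14 ibrutinib library (adjusted p 0.087 to 0.269).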

How the data were processed

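RNA-seq libraries (total RNA, stranded mRNA kit, per the labels' protocols) of TMD8 cells were analysed from 1 table that the authors deposited, which gives log2 normalised read counts per gene with a row of total mapped reads. bcl2fastq, STAR, HTSeq and hg19 are named in the submitters' processing notes, and the sources used here give no versions, strand setting or scaling method. Every value was a whole number of reads within 6e-04 log2 once each column was rescaled to its deposited total. Genes with a mean of at least 3.98 (10 reads, 12712 genes) were fitted with limma 3.58.1 (R 4.3.3), 4 group means over all 8 libraries, a variance trend, and Benjamini-Hochberg adjustment over all fitted genes. Calls are at an adjusted p under 0.05, and 95% intervals use the same fit. No set tests were run. The fit was run on simulated reads that had the same dispersion (extra spread beyond counting) for every gene and no other difference between replicates. That run cannot show how the fit behaves with the spread between the real libraries. Named were KLHL14, BTK, the 12 largest called changes each way, called genes of the lists where a list had 8 or fewer, the 5 smallest p-values between treatments, and list members by role. The 12 largest changes were taken from called genes with an official symbol and no overlap of the DMSO groups. The included genes and lists were chosen with earlier results of these data known. Some called genes of the lists are counted but not reported by name here. Alternatives were a fit of the 4 DMSO libraries, a replicate block, other filters, variance priors and scalings, a pseudocount of 64, voom on the recovered reads, thinned reads, and leaving out each library.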

Additional observations from a re-analysis of the deposited data

Results flagged for a closer look

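Genes are given here where the guide difference (sgKLHL14 minus sgCTRL) itself differed between DMSO and ibrutinib by limma's test of the difference of the differences. For HNRPLL it was higher in DMSO than in ibrutinib by 0.96 log2, the 2 differences being -0.84 and -1.80. For CLCN4 it was -0.84, from 1.37 in DMSO and 2.21 in ibrutinib, and for KLHL14 -0.66, from 0.20 and 0.86.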

How the results depend on the processing

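Across 19 other settings the sign of the difference turned in 0 of the 201 called genes, and 17 of them stayed called under every setting: CLCN4, ELL3, ERV3, FADS3, NLRP7, OLFML2A, RCBTB2, SLAMF6 and TMPRSS6 higher, and AMICA1, APBB1IP, C18orf1, CD180, FILIP1L, HNRPLL, ITGAX and TMEM119 lower. The counts of 95 higher and 106 lower became 25 and 21 without a filter on level and 11 and 9 without the variance trend, where limma called 0 genes between treatments in place of 3 (591 and 515 at an unadjusted p under 0.05). Leaving out a single library gave 27 to 244 higher, 21 to 284 lower and 2 to 4 between treatments. The remaining settings gave 78 to 113 higher and 89 to 124 lower. With the replicate number as a block 179 were called each way and 5 between treatments. Same-numbered libraries deviated together with correlations of -0.08 to 0.19 (0.04 for the 2 DMSO groups). The second principal component of the 4 DMSO libraries held 26.3% of their variance. On it the libraries numbered 1 lay at 7.22 (sgCTRL) and 5.38 (sgKLHL14), and those numbered 2 at -5.97 and -6.63. Low correlations over all included genes cannot exclude a pairing by number, because a shared shift may affect some genes only. BTK, not called at -0.02, ranged from -0.0555 to 0.0065 over the fits without 1 library, and was 0.005 without sgKLHL14 replicate 1. CLCN4 lost its call between treatments with 64 added (adjusted p = 0.101) and with voom (0.0737). The causes of these changes were not tested. With 2 libraries a group and 9 reads as the lowest count of an included gene in DMSO, small changes of low genes were not detectable at this depth.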
